A study of Mus musculus with 32 samples.

Results

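The comparison described here set mice lacking ACSS2 (KO) against wild-type (WT) mice in the cerebellar vermis after prenatal ethanol. It comprised 8 of the 32 libraries of the series, chosen by the column names of the deposited gene count table: 4 KO ethanol vermis libraries and 4 WT ethanol vermis libraries. Protein-coding genes were separated from pseudogenes by the biotype given in that table. The remaining libraries were KO and WT vermis after prenatal saline, and the dorsal hippocampus of the same mice under both exposures, with 4 libraries in each of the 8 groups. All mice were C57BL/6J. Each ethanol-exposed litter came from a dam given 1 daily intraperitoneal injection of ethanol at 3 g per kg, as a 20% solution by volume in saline, until birth, and control dams received saline. Offspring were killed between postnatal days 40 and 50. Each group held 2 females (F1 and F3) and 2 males (M1 and M3). The labels give the genotype as KO or WT, and they give neither the allele, the litter nor the hour of collection, so the p-values below measure the spread between these individual mice.

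ACSS2 is the nuclear and cytosolic acetyl-CoA synthetase, which joins acetate to coenzyme A. Ethanol is oxidised in the liver to acetaldehyde and then to acetate, which reaches the brain through the blood, and in neurons ACSS2 is known to supply acetyl-CoA for histone acetylation at active genes. The vermis is the midline part of the cerebellum, built of granule neurons, Purkinje neurons, interneurons and Bergmann glia.

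The 8 libraries held 23085928 (KO F3) to 61881332 (WT F3) counts, so that a CPM of 1 (CPM, counts scaled to a common library total with edgeR's TMM factors) stood for 22.9 to 62.6 counts. All 17 Purkinje markers and all 17 granule neuron markers had counts in each of the 8 libraries. The summed level of the Purkinje markers was 5152 to 12600 CPM in KO and 10230 to 12850 CPM in WT libraries. KO F1 stood apart from the other 7 libraries: it had the lowest granule neuron level and the highest levels of oligodendrocyte and blood cell genes, and it lay farthest out on the first principal component, at -99.1, against -65.7 for KO M3 and up to 70.7 for WT M1. KO M3 lay next to it, with a summed granule neuron level of 4903 CPM and 649.9 CPM for the deep cerebellar nuclei list, against 2984 and 686 CPM in KO F1 and, in the other 6 libraries, 7127 to 9648 and 245.7 to 379.6 CPM. Of 107 named genes called below, 74 were called whichever of the 8 libraries was left out, and 23 lost their call without KO F1, with the values given beside them. The transcript of the targeted gene was checked first. Acss2 (ENSMUSG00000027605, first listed exon chr2:155359868-155360204 on the forward strand, GRCm39) had 11.9, 20.4, 18.8 and 11 CPM in KO libraries F1, F3, M1 and M3, against 68.3, 59.8, 59.1 and 57.0 CPM in the WT libraries. The groups did not overlap, and the level in KO was 15.5 ± 4.74 CPM against 61.0 ± 4.96 CPM in WT (SD, n = 4 each). An exact two-sided permutation test of log2 CPM gave a difference of -2.02 and p = 0.0286, the smallest that 70 splits of 4 against 4 allow. Residual counts remained in every KO library, and reads of an overlapping gene would be included in them.

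With all 8 libraries, more genes were called higher than lower in KO ethanol vermis, and the higher ones were led by short, abundant transcripts of the ribosome and the respiratory chain. The lower ones were led by clock genes and by genes known to respond to glucocorticoids. In all, 1690 of 22441 genes tested passed (7.53%). Of 15601 protein-coding genes, 1324 passed (8.49%): 946 were higher (6.06%) and 378 lower (2.42%), at a Benjamini-Hochberg adjusted p under 0.05 in edgeR's quasi-likelihood test. Of 2065 pseudogenes tested, 265 passed (12.8%), and 260 of these were higher (12.6%) and 5 lower (0.242%). With a gene length offset in the fit these counts were 159 and 32. The median log2 fold change, KO over WT, was 0.02 over all coding genes and 0.26 over all pseudogenes. Higher coding genes had a median log2 fold change of 0.53, and 114 of them exceeded 1 on that scale. Lower coding genes had a median of -0.31, and 12 of them fell by more than 1. The 4 KO and 4 WT libraries did not overlap for 860 of the 946 higher coding genes and for 307 of the 378 lower ones, where 8.08% of all coding genes tested lay wholly above WT and 4.86% wholly below. The number of called coding genes depended on single libraries: it was 4267 (2062 higher and 2205 lower, so that the balance turned round) without KO F3, 875 without KO F1, 795 without KO M3, 880 without WT F1, 797 without WT F3 and 733 without WT M1. DESeq2 called 1284 coding genes higher and 1162 lower.

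**Figure D1:**
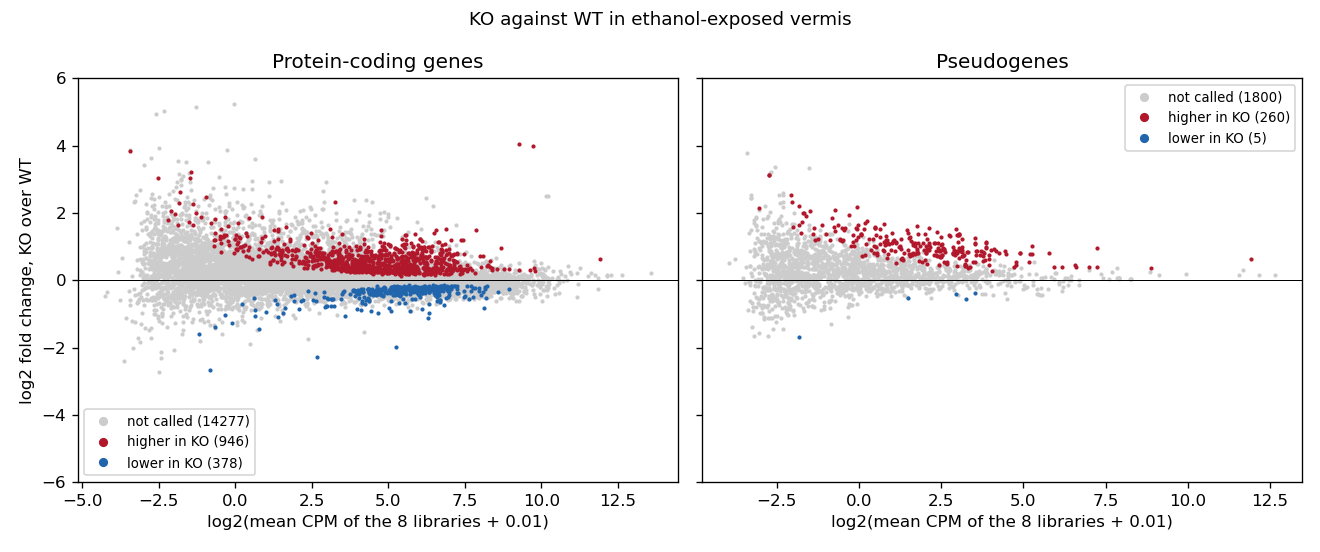
Log2 fold change of KO over WT ethanol vermis (vertical axis) against the log2 of the mean CPM of the 8 libraries plus 0.01 (horizontal axis), for protein-coding genes on the left and pseudogenes on the right. Each point is 1 gene. Red points are called higher (946 and 260), blue points are called lower (378 and 5), and grey points did not pass. Points beyond 6 on the vertical axis are not drawn.

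The cytosolic ribosome had the largest share of members called among the 40 gene lists counted. Of 79 genes for proteins of the cytosolic ribosome, 78 rose in KO ethanol vermis and none fell, with a median log2 fold change of 0.82, against 0.02 over all coding genes tested. Their mean level was 6.58 to 6.94 log2 CPM in KO libraries and 5.86 to 6.03 log2 CPM in WT libraries. They took 0.814 to 1.03% of all counts in KO libraries and 0.525 to 0.599% in WT libraries, without overlap. The member that did not pass was Rpl4, a large-subunit protein, at 291.7 CPM in KO and 263.4 CPM in WT (log2 fold change 0.15, adjusted p = 0.22). Between 77 and 79 members were called higher whichever library was left out. No library decided this count.

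Rpl35a, a protein of the large subunit (first listed exon chr16:32876823-32876880, forward strand, GRCm39), had 73.6, 61.0, 68.7 and 68.5 CPM in KO libraries F1, F3, M1 and M3, against 28.2, 26.3, 25.4 and 27.2 CPM in WT. The lowest KO library was far above the highest WT library, and the log2 fold change was 1.35 (SE 0.068, adjusted p = 1.1e-07). Rps14, of the small subunit, had 146, 128, 152 and 135 CPM in KO and 51.1, 49.6, 49.6 and 49.0 CPM in WT (1.5, adjusted p = 1.6e-07). Rps3, a small-subunit protein at the entry of the mRNA channel, had 203, 168, 184 and 179 CPM in KO and 85.9, 77.7, 78.9 and 78.3 CPM in WT (1.20, adjusted p = 1.6e-07). In all 3 genes the WT libraries lay close together, and KO F3 was the lowest KO library. Rpl39, Rps27, Rpl34, Rpl26, Rps25 and Rpl10a, also among the 15 higher genes with the smallest p, had log2 fold changes of 1.49, 1.33, 1.20, 1.13, 0.98 and 0.80. Fau, which encodes a small-subunit protein fused to a ubiquitin-like peptide, changed by 1.00.

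**Figure D2:**
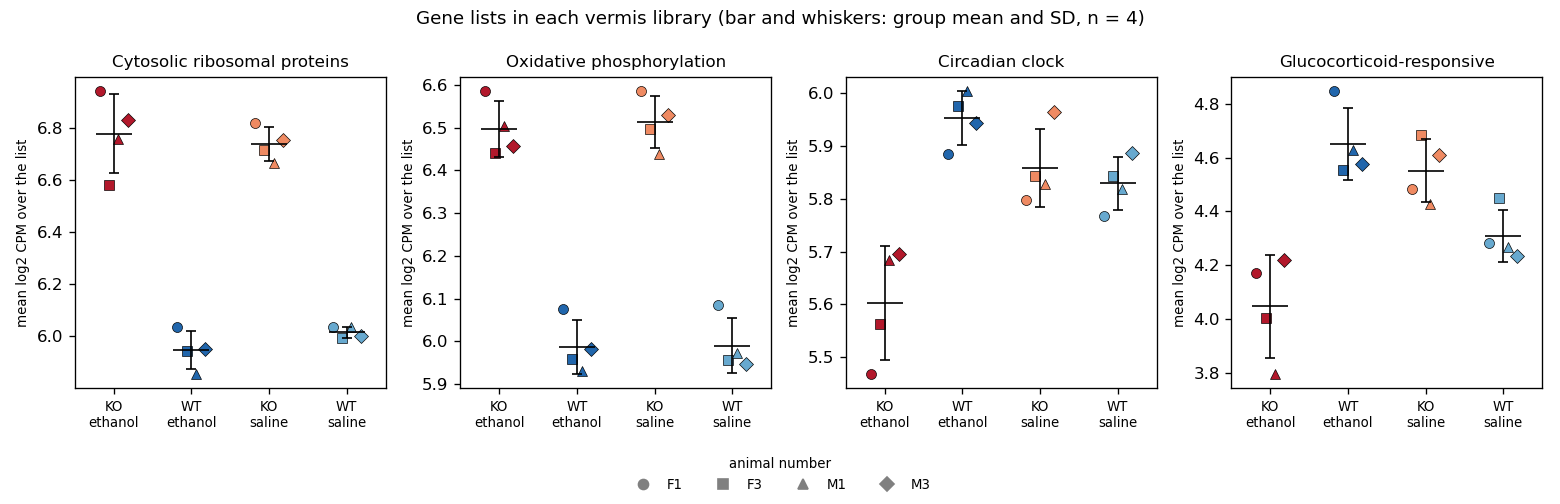
Mean log2 CPM over the genes of 4 lists (vertical axes) in each vermis library, by group (horizontal axes). Points are libraries, with shapes for F1, F3, M1 and M3, and the bar and whiskers are the group mean and SD of 4 libraries. Ribosomal protein genes lie at 6.58 to 6.94 in KO ethanol and 5.86 to 6.03 in WT ethanol libraries, and clock genes at 5.47 to 5.70 in KO ethanol and 5.89 to 6.00 in WT ethanol libraries.

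The respiratory chain moved the same way. Of 77 nuclear genes for subunits of complexes I to V and cytochrome c, 63 rose and none fell, with a median log2 fold change of 0.50. Atp5f1e, the epsilon subunit of the ATP synthase (first listed exon chr2:174302865-174303014, reverse strand, GRCm39), had 58.4, 56.8, 61.7 and 57.0 CPM in KO libraries F1, F3, M1 and M3, against 29.8, 27.8, 27.0 and 29.1 CPM in WT. The groups were far apart, at a log2 fold change of 1.04 (SE 0.065, adjusted p = 1.7e-07). Ndufa12, an accessory subunit of complex I, averaged 70.8 ± 2.23 CPM in KO and 39.6 ± 2.12 CPM in WT (0.84, adjusted p = 3.2e-07). Cox7a2, a small subunit of cytochrome c oxidase, averaged 85.7 ± 5.55 CPM in KO and 44.2 ± 2.69 CPM in WT (0.96, adjusted p = 3.9e-07). The 14 members that did not pass included core subunits. Sdha, the flavoprotein of complex II, had a log2 fold change of 0.05. Cyc1, cytochrome c1, had 0.03, and Ndufs1, an iron-sulfur subunit of complex I, 0.004. Ndufa10, an accessory subunit of complex I, had -0.02 and did not pass either. These 4 were picked after their values were seen.

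Other mitochondrial genes shared the direction in part. Uqcc2, an assembly factor of complex III, had 39.5, 35.5, 34.7 and 35.1 CPM in KO and 17.4, 17.6, 15.3 and 16.2 CPM in WT (log2 fold change 1.12, adjusted p = 1.1e-07), with no overlap. Chchd2, a protein of the mitochondrial intermembrane space, changed by 0.94. Of the 15 higher genes with the smallest p, Pfdn5, a prefoldin subunit (1.09), and Hint1, a nucleotide hydrolase (0.84), belonged to none of these lists. Of 78 mitochondrial ribosomal protein genes, 32 rose and none fell (median 0.17), and Mrpl20 averaged 26.1 ± 1.49 CPM in KO and 14.2 ± 0.67 CPM in WT (0.88, adjusted p = 1.9e-06). Of 15 transcripts encoded by the mitochondrial genome, 3 rose, mt-Co3, mt-Rnr2 and mt-Nd3, and none fell (median 0.18). mt-Co3, a subunit of cytochrome c oxidase, had 5300, 4170, 4450 and 4770 CPM in KO and 3140, 2770, 2780 and 3370 CPM in WT (0.63, adjusted p = 0.0013).

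Lists on protein synthesis, breakdown and folding held fewer calls. Of 43 translation factors, 11 rose (25.6%, against 6.06% of all coding genes) and 1 fell (2.33%, against 2.42%). The list's median was 0.03. Eif3i, a subunit of initiation factor 3, averaged 47.0 ± 3.67 CPM in KO and 30.4 ± 1.44 CPM in WT (log2 fold change 0.63, adjusted p = 1.8e-05), and Tpt1 averaged 317 ± 39.2 CPM in KO and 192 ± 13.8 CPM in WT (0.72, adjusted p = 2e-05). The factor that fell was Eef2k, the kinase that inhibits elongation factor 2, at -0.56. Of 35 proteasome genes, 14 rose (40%) and 1, Psmd11, fell (2.86%), with a median of 0.16. Psma2 and Psmb4, both of the core particle, had 70.5 ± 3.17 and 90.7 ± 6.04 CPM in KO, against 47.1 ± 2.55 and 55.8 ± 2.49 CPM in WT.

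Of 33 heat shock and unfolded protein response genes, 9 rose (27.3%, against 6.06% of all coding genes) and none fell (median 0.23). Hspe1, the mitochondrial co-chaperonin, averaged 39.6 ± 3.12 CPM in KO and 25.6 ± 2.01 CPM in WT (log2 fold change 0.63, adjusted p = 6.6e-05). Manf, a factor secreted under endoplasmic reticulum stress, had 39.8, 40.7, 66.1 and 64.2 CPM in KO and 33.4, 31.0, 32.3 and 30.8 CPM in WT. Both KO males were above both KO females, while the WT libraries lay within a narrow range (0.70, adjusted p = 0.0077). Pdia6, a disulfide isomerase, had 78.5, 61.9, 94.8 and 100 CPM in KO and 56.3, 57.8, 52.9 and 59.7 CPM in WT (0.56, adjusted p = 0.011). The count depended on single libraries: 18 genes of this list were called higher without KO F3, 4 without WT F1 or WT F3, 3 without KO M1, and 2 without KO M3 or WT M1.

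Gene length moved with genotype. A slope on log2 gene length was taken for each library's log2 level minus the gene's mean over the 16 vermis libraries, in coding genes. It was -0.0949 to -0.00528 in KO libraries and 0.019 to 0.0655 in WT libraries, without overlap. These slopes are relative between libraries, so their signs do not give the slope of the level itself. Among coding genes in the shortest of 4 equal classes (78 to 2741 bases of annotated length), 15.4% were called higher and 1.08% lower, with a median log2 fold change of 0.17. Among those in the longest class, 1.46% were called higher and 2.72% lower, with a median of -0.04. Higher coding genes had a median length of 2043 bases, lower coding genes 5212 bases and higher pseudogenes 474 bases. With a length offset in the fit, 73 ribosomal protein genes were still called higher (median 0.72) and 54 oxidative phosphorylation genes (median 0.37). Of the 107 named calls, 15 were lost with it, among them Gm6125, Brd2, Pmvk, mt-Co3, mt-Nd3, Npas4, Pvalb, Fabp7, Sox9, Gjb1, Vcan, Vtn, Hbb-bt and Hbb-bs. Of the clock genes 9 and of the glucocorticoid-responsive genes 11 were called lower with it.

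Among the 15 lower coding genes with the smallest p, clock genes were the most numerous. Of 20 clock genes, 10 fell in KO ethanol vermis (50%, against 2.42% of all coding genes) and none rose. The median log2 fold change of the list was -0.28. The 10 were Dbp, Ciart, Nr1d2, Per3, Nr1d1, Tef, Per1, Bhlhe40, Cry2 and Per2, which act as repressors or as PAR bZIP output factors of the clock. Bmal1 and Clock, which encode the activators, had log2 fold changes of 0.14 and 0.08 and did not pass. Between 8 and 11 clock genes were called lower whichever library was left out. The labels give no hour of collection, so a difference in clock phase and a difference in level cannot be told apart.

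Dbp, a PAR bZIP factor driven by the clock (first listed exon chr7:45354512-45355186, forward strand, GRCm39), had 50.3, 46.1, 49.4 and 52.1 CPM in KO libraries F1, F3, M1 and M3, against 105, 111, 110 and 102 CPM in WT. The groups lay far apart, and the log2 fold change was -1.11 (SE 0.062, adjusted p = 1.4e-07). Ciart, a repressor of CLOCK and BMAL1, had 8.18, 5.97, 8.88 and 8.06 CPM in KO and 16, 16.6, 17.1 and 15.2 CPM in WT (-1.06, adjusted p = 3.9e-06). Per3, a period gene, had 35.7, 32.3, 41.9 and 35.9 CPM in KO and 56.5, 58.3, 64.8 and 51.0 CPM in WT (-0.66, adjusted p = 0.00017). Nr1d1 and Nr1d2, the REV-ERB receptors, averaged 84.3 ± 11.1 and 149 ± 15.3 CPM in KO, against 140 ± 12.8 and 210 ± 7.36 CPM in WT. Tef fell by 0.52 on the log2 scale. None of these 6 genes overlapped between KO and WT libraries. They were picked for a small p, and 307 of all 378 lower coding genes did not overlap either. Of all coding genes tested, 4.86% lay wholly below WT.

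Genes known to be induced by glucocorticoids were the second group among the lower genes. Of 22 such genes, 9 fell (40.9%, against 2.42% of all coding genes) and none rose. The median log2 fold change of the 22 was -0.46, and DESeq2 called 15 of them lower. Per1 belongs to this list and to the clock list. Sgk1, a serum- and glucocorticoid-induced kinase (first listed exon chr10:21758083-21758606, forward strand, GRCm39), had 31.3, 40.4, 37.3 and 35.8 CPM in KO and 87.7, 69.4, 53.7 and 63.4 CPM in WT (-0.91, adjusted p = 0.00045). Map3k6, a stress kinase gene, had 1.01, 0.785, 0.878 and 0.89 CPM in KO and 2.89, 2.24, 2.38 and 2.42 CPM in WT (-1.46, adjusted p = 0.00024). Mt2, a metallothionein that binds zinc, had 89.7, 86.3, 71.4 and 82.5 CPM in KO and 141, 112, 123 and 118 CPM in WT (-0.59, adjusted p = 0.00041). Klf15, a Kruppel-like transcription factor, averaged 16.3 ± 1.17 CPM in KO and 24.9 ± 1.18 CPM in WT (-0.61, adjusted p = 0.00026). All 4 genes were separated between the groups, as were 307 of all 378 lower coding genes. For each of the 4, WT F1 was the highest library. The others that fell were Per1, Hif3a, Klf9, Nfkbia and Tsc22d3. Fkbp5, Pdk4 and Dusp1, also in the list, had log2 fold changes of -0.14, 0.16 and 0.30 and did not pass.

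**Figure D3:**
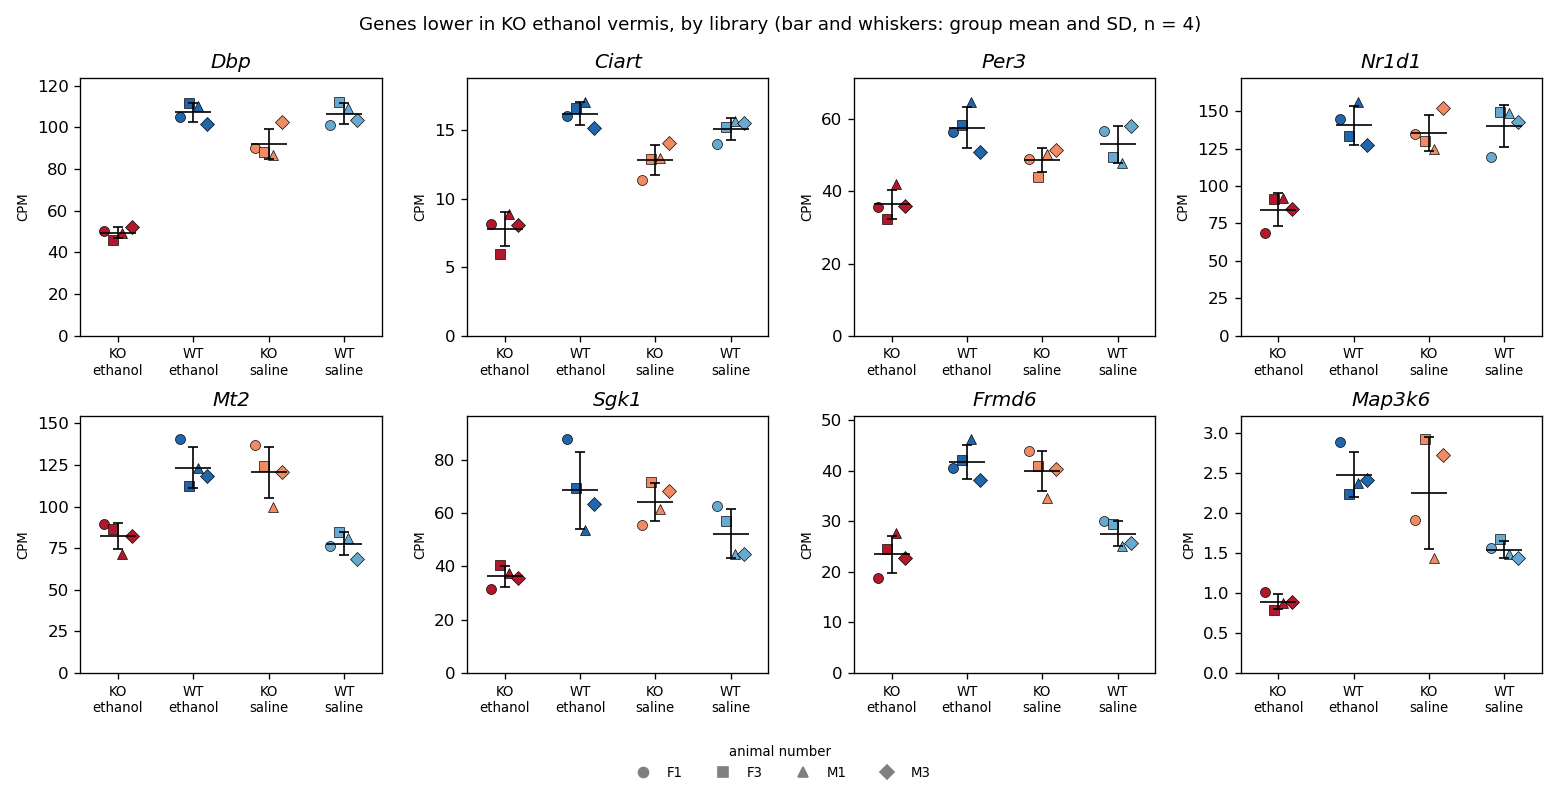
Level in CPM (vertical axes, from 0) of 8 genes called lower in KO ethanol vermis, in each vermis library by group (horizontal axes). Points are libraries, and the bar and whiskers are the mean and SD of 4 libraries. For each gene the 4 KO ethanol libraries lie below the 4 WT ethanol libraries, for example Dbp at 46.1 to 52.1 against 102 to 111 CPM.

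Promoters of 3 of these genes are shown because they carry the DNA elements that clock and glucocorticoid factors are known to bind. The sequences are from RefSeq (GRCm38.p6), 250 bases before a listed start, and were searched on both strands. Capitals mark CACGTG (E-box) in Ciart, TTATGTAA (D-box, bound by DBP and TEF) in Per3, and, in Sgk1, CACGTG and then the palindromic glucocorticoid response element with any 3 bases between its arms.
Ciart, chr3:95882229-95882478, reverse strand: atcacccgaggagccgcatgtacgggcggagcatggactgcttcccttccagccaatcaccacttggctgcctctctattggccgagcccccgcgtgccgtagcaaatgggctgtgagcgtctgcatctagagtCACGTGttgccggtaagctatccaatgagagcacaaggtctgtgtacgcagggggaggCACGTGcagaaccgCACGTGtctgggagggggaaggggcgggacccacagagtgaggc
Per3, chr4:151044666-151044915, reverse strand: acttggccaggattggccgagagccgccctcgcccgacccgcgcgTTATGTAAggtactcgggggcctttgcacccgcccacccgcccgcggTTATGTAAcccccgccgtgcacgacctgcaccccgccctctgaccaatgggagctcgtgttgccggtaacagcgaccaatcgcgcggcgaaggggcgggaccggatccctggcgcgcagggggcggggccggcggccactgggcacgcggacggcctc
Sgk1, chr10:21993640-21993889, forward strand: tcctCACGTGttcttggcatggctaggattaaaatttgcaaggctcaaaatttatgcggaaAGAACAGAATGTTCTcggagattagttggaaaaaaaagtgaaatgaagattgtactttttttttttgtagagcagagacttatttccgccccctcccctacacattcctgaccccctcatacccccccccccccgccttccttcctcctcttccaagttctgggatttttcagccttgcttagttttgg

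The Ciart promoter held 3 E-boxes and the Per3 promoter 2 D-boxes. Sgk1 has 6 listed promoters, and 1 of them held the glucocorticoid response element and 1 E-box. Of the 10 lower clock genes, 8 had a promoter in the table, and an E-box was in 3 of them (37.5%: Ciart, Per1 and Tef), against 9.35% of 11891 coding genes with a promoter. A D-box was in 1 of the 8, Per3, against 0.656% of all. Of the 9 lower glucocorticoid-responsive genes, an E-box was in 3 (Klf15, Per1 and Sgk1), and Sgk1 was the single gene of all 11891 with the full glucocorticoid element. For 58 ribosomal protein genes with a promoter, an ETS site (CCGGAAG) was in 18 (31.0%), against 13.6% of all, and for 52 oxidative phosphorylation genes an NRF1 site was in 9 (17.3%), against 8.03% of all. Of all 16 clock genes with a promoter, 5 had an E-box (31.2%), among them Bhlhe41 and Cry1, which were not called. Of all 19 glucocorticoid-responsive genes with a promoter, 5 had an E-box (26.3%), among them Dusp1 and Fkbp5, which were not called. The Dbp promoter held none of these motifs. Among higher coding genes 17.2% had an ETS site and 9.85% an NRF1 site, against 16.9% and 13.6% among lower coding genes. These are matches of letters in a fixed window.

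Other genes among the 15 lower ones with the smallest p were not in either list. Mertk, a receptor tyrosine kinase of phagocytic glia, had 15.1, 14.7, 14.7 and 16.1 CPM in KO and 26.0, 23.4, 32.4 and 31.6 CPM in WT (log2 fold change -0.90, adjusted p = 3.5e-05). Frmd6, a FERM-domain protein of the Hippo pathway, had 18.8, 24.5, 27.7 and 22.7 CPM in KO and 40.6, 42.0, 46.2 and 38.2 CPM in WT (-0.83, adjusted p = 0.00014). Slc7a5, the large neutral amino acid transporter, averaged 79.1 ± 9.91 CPM in KO and 112.1 ± 3.79 CPM in WT, and Fzd4, a Wnt and norrin receptor, averaged 13.7 ± 1.53 CPM in KO and 21.8 ± 1.53 CPM in WT. Both fell, by 0.51 and 0.66 on the log2 scale.

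Of 36 activity-regulated genes, 3 fell (8.33%, against 2.42% of all coding genes) and 1 rose (2.78%, against 6.06%). The median log2 fold change of the list was -0.05. Per1, an immediate early and clock gene, had 42.3, 61.4, 56.5 and 57.3 CPM in KO and 117, 107, 112 and 92.5 CPM in WT (-0.98, adjusted p = 0.00075). Bdnf, the neurotrophin, had 20.7, 17.9, 17.4 and 21 CPM in KO and 25.9, 24.4, 27.5 and 25.9 CPM in WT (-0.43, adjusted p = 0.013). Dusp6, a phosphatase that inactivates ERK, had 15.5, 15.6, 18.9 and 16.1 CPM in KO and 20.7, 25.7, 22.1 and 27.9 CPM in WT (-0.54, adjusted p = 0.0065). These 3 genes did not overlap between the groups, and neither did 307 of all 378 lower coding genes. Npas4, a neuronal activity factor, averaged 3.49 ± 1.39 CPM in KO and 1.86 ± 0.361 CPM in WT with overlapping libraries (0.91, adjusted p = 0.05 to 2 decimals, just under the threshold; 0.70 and 0.17 without KO F1). Its call was lost in 11 of 16 alternatives.

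Among genes around the enzyme itself, the calls apart from that of Sirt3 were close to the threshold. Of 23 genes of acetate and acetyl-CoA supply, 3 rose (13%, against 6.06% of all coding genes) and none fell apart from Acss2, which was counted on its own (median log2 fold change 0.08). Slc16a1, the monocarboxylate transporter MCT1, had 58.7, 45.2, 46.9 and 50.0 CPM in KO and 39.8, 42.0, 38.8 and 43.0 CPM in WT (0.30, adjusted p = 0.033). Acss3 and Aldh2, of propionate activation and acetaldehyde oxidation, had overlapping libraries and log2 fold changes of 0.90 and 0.30 (adjusted p = 0.046 and 0.05). Of 30 genes for histone acetylation, 1 rose and 1 fell. Sirt3, a mitochondrial deacetylase, rose (0.44, adjusted p = 0.0042), and its call was lost in 1 of 16 alternatives, the fit of the 8 libraries alone. Brd2, a reader of acetylated histones, fell (-0.24). Without KO F1 the adjusted p was 0.11 for Slc16a1, 0.2 for Acss3, 0.16 for Aldh2 and 0.074 for Brd2. The acetate list had 0 genes called higher without KO F1, KO M3, WT F1, WT F3 or WT M1, 2 without WT M3, and 4 without KO F3.

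Of 24 sterol synthesis genes, 1 rose (4.17%, against 6.06% of all coding genes): Pmvk, at 0.28. Of 12 fatty acid synthesis genes, 1 rose (8.33%): Srebf1, at 0.36, and at 0.23 with adjusted p = 0.076 without KO F1. None of 26 glutamate receptor genes passed in edgeR's test (2 higher and 3 lower at an unadjusted p under 0.05, and 1 lower in DESeq2), nor did any of 23 sodium and calcium channel genes (0 and 6, and 3 lower in DESeq2) or of 17 genes of DNA methylation (0 and 7, and 4 lower in DESeq2). Without KO F3, 4 glutamate receptor genes were called higher and 6 lower, and 7 channel genes and 7 DNA methylation genes lower. Of 20 targets of NRF2, 6 rose (30%, median 0.15), among them Prdx1, a peroxiredoxin (0.71), and Gpx4, a glutathione peroxidase for lipid peroxides. Gpx4 was at 155 ± 16.8 CPM in KO and 83.1 ± 5.93 CPM in WT (0.90, adjusted p = 1.6e-06). Of 36 spliceosome genes, 6 rose (16.7%), Snrpd2 among them (0.71), and none was called lower in edgeR's test, while the median of the list was -0.07. At an unadjusted p under 0.05, 8 of them were lower, DESeq2 called 3 lower, and without KO F3 11 were called lower. Of 14 NF-kappaB genes, 1 fell (7.14%, against 2.42% of all coding genes). It was Nfkbia, the inhibitor, which had 17.0, 18.7, 17.5 and 19.2 CPM in KO and 27.1, 26.5, 21.2 and 21.4 CPM in WT (-0.41, adjusted p = 0.0049). Of 20 interferon-response genes, 2 rose (10%), Ifi27 (0.86) and Irf1 (0.79). Of 20 GABA-A and glycine receptor genes, 1 rose (5%), Gabrg1 (0.70). The share of all coding genes called higher was 6.06%. Without KO F1, Irf1 had a log2 fold change of 0.46 (adjusted p = 0.13) and Gabrg1 0.49 (adjusted p = 0.15).

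Pseudogenes are copies of genes, most of them made by reverse transcription of an mRNA, and reads of a parent gene can align to its copy. For 1 pair, mt-Atp6 and its nuclear copy Atp6-ps, the counts were nearly the same, at 305676 and 305782 on average in KO, and 319382 and 319514 in WT. Most copies held far fewer: the median CPM of a pseudogene was 0.0466 of its closest coding match for the higher pseudogenes and 0.0128 for all with a close match. Where reads are shared, the calls of a pseudogene and its parent are not independent. Sequences of transcripts (GENCODE, GRCm38) were compared by blastn, and 3 pairs are shown, an identical one, one with a single different base and one that fell in KO. Capitals mark the bases that differ within the window shown.
Rps16-ps2, chr5:129128077-129128517, reverse strand: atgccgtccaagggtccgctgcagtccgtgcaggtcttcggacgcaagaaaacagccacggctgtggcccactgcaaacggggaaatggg
Rps16, chr7:28350652-28353155, forward strand: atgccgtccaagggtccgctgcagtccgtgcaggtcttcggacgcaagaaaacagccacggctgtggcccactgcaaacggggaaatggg
Gm4294, chr12:12023045-12023658, forward strand: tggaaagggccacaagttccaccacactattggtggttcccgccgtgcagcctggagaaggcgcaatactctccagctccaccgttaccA
Rpl15, chr14:18267823-18271391, reverse strand: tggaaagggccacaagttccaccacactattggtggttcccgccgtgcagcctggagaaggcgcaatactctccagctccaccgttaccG
Gm15583, chr1:146725581-146729090, forward strand: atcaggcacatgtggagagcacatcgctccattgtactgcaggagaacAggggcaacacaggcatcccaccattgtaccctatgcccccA
Zbed4, chr15:88751660-88784516, forward strand: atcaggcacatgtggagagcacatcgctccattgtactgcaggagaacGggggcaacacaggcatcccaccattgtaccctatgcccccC

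Rps16-ps2 was identical to the Rps16 transcript over all its 441 bases. It had 10.1, 9.76, 8.68 and 10.4 CPM in KO and 3.81, 4.19, 3.44 and 4.36 CPM in WT, a log2 fold change of 1.30 (adjusted p = 1.3e-06), and Rps16, a small-subunit protein gene, changed by 1.18. Gm4294 differed from Rpl15 at 1 of 614 bases and had 43.4, 32.6, 37.3 and 38.5 CPM in KO and 22, 21.6, 20.4 and 22.5 CPM in WT (0.81, adjusted p = 2.9e-06), and Rpl15 changed by 0.63. Gm15583 differed from Zbed4, a zinc-finger gene, at 7 of 3510 bases. It had 5.83, 7.63, 6.68 and 6.27 CPM in KO and 8.12, 8.44, 8.46 and 9.68 CPM in WT (-0.40, adjusted p = 0.019), and Zbed4 changed by -0.33. Without KO F1 the value for Gm15583 was -0.34 (adjusted p = 0.069).

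The other named pseudogenes matched coding transcripts as well, 1 of them in part. Gm10736 was identical to Rpl41 over 78 bases and changed by 1.51 on the log2 scale, against 1.40 for Rpl41. Gm10123 was identical to Ppia, cyclophilin A, over 490 bases, and had 232, 176, 185 and 208 CPM in KO and 104, 103, 95.5 and 112 CPM in WT (0.95, adjusted p = 1.7e-06), while Ppia changed by 0.94. Rpl15-ps3 was identical to Rpl15 over 615 bases and changed by 0.77. Of the lower pseudogenes, Alms1-ps2 (-0.57) differed from Alms1 at 23 of 2286 bases. Gm6125 (-0.52) aligned to Zbed4 over 2006 of its 3472 bases and differed at 28 of them. Gm6483 (-0.37) differed from Cdh11 at 23 of 753. Without KO F1 these 3 had adjusted p-values of 0.098, 0.17 and 0.14, and no pseudogene was called lower. Alms1 and Cdh11 did not pass, with log2 fold changes of -0.52 and 0.17.

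The pattern held across the class. Among the 260 higher pseudogenes, 256 had a sequence, and 253 of these (98.8%) matched a coding transcript at 90% identity or more over at least 80% of their length, against 1696 of 1997 of all tested pseudogenes with a sequence (84.9%). The best-matching coding gene was called higher for 240 of the 253, was not called for 13 and was called lower for none. It was a cytosolic ribosomal protein gene for 186 and an oxidative phosphorylation gene for 11. Of 698 pseudogenes whose match was called higher, 34.4% were called higher themselves (median log2 fold change 0.79). Of 979 whose match was not called, 1.33% were (median 0.12), and of 19 whose match was called lower, none were (median -0.23). By biotype, 205 of 1506 processed pseudogenes (13.6%) and 49 of 316 transcribed processed pseudogenes (15.5%) were called higher, against 1 of 79 unprocessed pseudogenes (1.27%), which arise by duplication of genomic DNA. For 240 of the 260 higher pseudogenes all KO libraries lay above all WT libraries, as they did for 19.9% of all pseudogenes tested, and 0.92% of all lay wholly below.

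**Figure D4:**
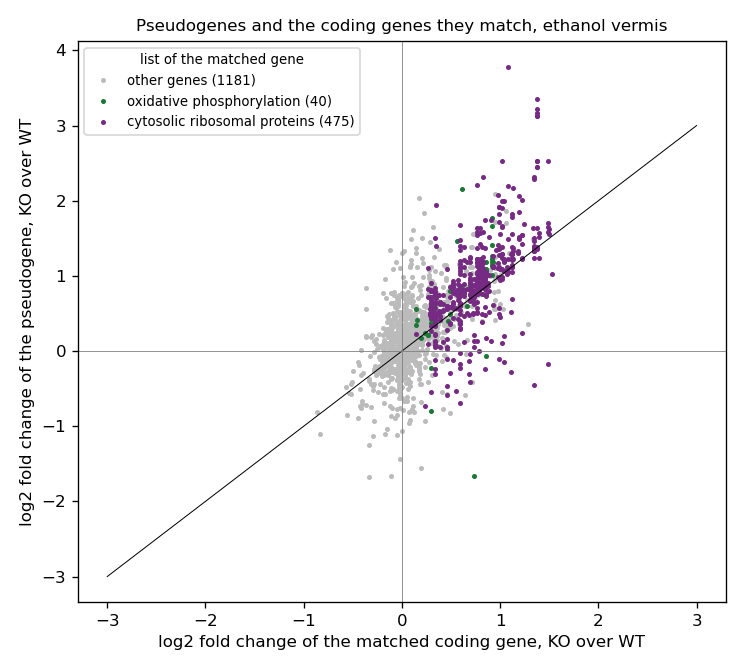
Log2 fold change (KO over WT, ethanol vermis) of each closely matching pseudogene (vertical axis) against that of its best-matching coding gene (horizontal axis), with the line of equality. Purple points match 1 of 75 cytosolic ribosomal protein genes (475 pseudogenes), green points an oxidative phosphorylation gene (40) and grey points another gene. Most purple points lie above 0 on both axes, with a median of 0.865 for the pseudogenes that match ribosomal protein genes.

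Genes of neither class passed less often, with 81 higher and 20 lower of 4775 (2.12%). Bc1, a short brain RNA transcribed by RNA polymerase III that inhibits translation, averaged 68.0 ± 27.7 CPM in KO and 8.10 ± 2.60 CPM in WT (log2 fold change 3.07, adjusted p = 8.6e-05), without overlap. It was picked after its value was seen. Of 3129 long noncoding RNAs, 50 were higher and 15 lower, and of 70 small nuclear RNAs, 16 were higher and none lower. The RNA was selected by poly(A), so small nuclear RNAs were counted only as far as they passed that step. Of 133 coding genes within 5 Mb of Acss2, 2 were higher (Romo1 and Dynlrb1) and 2 lower (Bcl2l1 and Fam83d), or 3.01%, against 8.13% on the rest of chromosome 2.

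Of 18 marker lists of cell types, 9 had a larger share of genes called higher than the 6.06% of all coding genes, and 8 had none. The largest shares were those of blood cell genes (40%), meningeal (38.5%), endothelial (23.5%), microglial (21.1%) and pericyte markers (15.4%), and most of these counts depended on single libraries. In bulk tissue, fewer cells of a type and less RNA per cell cannot be told apart. None of the 17 granule neuron markers passed in edgeR's test (2 lower at an unadjusted p under 0.05 and 2 in DESeq2), with a median log2 fold change of -0.43 and summed levels of 2984 to 8695 CPM in KO and 7127 to 9648 CPM in WT libraries, and 8 of them were called lower without KO F3. None of the 17 Purkinje markers passed (1 higher at an unadjusted p under 0.05, 0 in DESeq2, median -0.31). Of 19 oligodendrocyte markers, 1 rose, Gjb1, a connexin of myelin (0.89, and 0.46 with adjusted p = 0.058 without KO F1), and 7 did without KO F3. Their median was 0.43 with all libraries and 0.01 without KO F1, in which their summed level was 15030 CPM, against 5296 to 6603 CPM in the other KO libraries and 5221 to 7710 CPM in WT. Of 5 blood cell genes, the 2 beta-globins rose. Hbb-bs had 5590, 172, 384 and 331 CPM in KO and 131, 112, 29.6 and 73.9 CPM in WT, and without KO F1 none of the 5 passed (adjusted p = 0.26 for Hbb-bs and 0.25 for Hbb-bt) and their median was 0.38 in place of 2.51.

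Of 19 microglial markers, 4 rose and 15 did not pass (median 0.55). Without KO F1, 2 of the 4 were called (median 0.26), while Siglech and Aif1 had adjusted p-values of 0.06 and 0.08. Without KO M3 or WT F3 the count was 2, without WT F1 or WT M1 it was 1, and without KO F3 it was 13. Tyrobp, an adaptor of the TREM2 receptor, had 5.78, 2.53, 3.68 and 3.46 CPM in KO and 1.44, 1.25, 1.15 and 1.81 CPM in WT (log2 fold change 1.46, adjusted p = 0.00089). Of 17 endothelial markers, 4 rose, 1 fell and 12 did not pass (median 0.23). With 1 library left out 3 to 8 rose, the most without KO F3. Cldn5, the tight-junction claudin of brain endothelium, had 49.8, 35.4, 44.5 and 42.8 CPM in KO and 18.4, 20.6, 19.1 and 23.9 CPM in WT (1.07, adjusted p = 5.3e-06), and Itm2a changed by 0.89. The marker that fell was Slc2a1, the glucose transporter GLUT1, at 78.4 ± 12.6 CPM in KO and 108 ± 10.6 CPM in WT (-0.45, adjusted p = 0.026). Its call was lost in 3 of the 8 fits that leave out a library. Cldn5 and Slc2a1 thus moved in opposite directions within 1 list. Of 13 markers of pericytes and vascular smooth muscle, 2 rose, Vtn (0.43) and Pdgfrb (0.36), and 11 did not pass (median 0.32). Without KO F1 their adjusted p-values were 0.057 and 0.14. The count was 0 without any 1 of KO F1, KO M3, WT F1, WT F3 and WT M1, 1 without KO M1, 3 without KO F3 and 4 without WT M3.

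Of 13 meningeal markers, 5 rose (median 0.78), with summed levels of 402 to 918.4 CPM in KO and 334.3 to 581.4 CPM in WT. The count was 2 without KO F1, KO M3, WT F1 or WT M1, 3 without WT F3, and 8 without KO F3 or WT M3. Without KO F1, Col1a1 and Igf2, a collagen and a growth factor, lost their calls (adjusted p = 0.07 and 0.078). Col3a1, a fibrillar collagen, had 14.0, 10.7, 14.3 and 15.4 CPM in KO and 5.19, 9.52, 5.81 and 8.63 CPM in WT (log2 fold change 0.91, adjusted p = 0.0055), and Slc6a13, a GABA transporter of the meninges, changed by 1.20. Of 16 choroid plexus markers, 1 rose, Kl (1.49, and 1.39 with adjusted p = 0.1 without KO F1), and of 15 ependymal markers, 1 rose, Rarres2 (0.86). The ependymal count was 0 to 5 with 1 library left out, the most without KO F3. Rarres2 lost its call in 4 of the 8 fits that leave out a library. The choroid plexus list summed to 144.7 to 442.6 CPM in KO and 139.4 to 173 CPM in WT. Of 12 interneuron markers, 1 rose: Pvalb, parvalbumin, had 252, 461, 480 and 331 CPM in KO and 242, 257, 271 and 252 CPM in WT (0.58, adjusted p = 0.047), with overlap. This call was lost in 12 of 16 alternatives, including 7 of the 8 that leave out a library. It was kept without KO F1, at 0.74 (adjusted p = 0.001). In saline, Pvalb had 410 to 544 CPM in KO and 223 to 279 CPM in WT libraries. Of 16 markers of Bergmann glia and astrocytes, Fabp7 (0.89) and Sox9 (0.42) rose, the second with its call lost in 11 of 16 alternatives, and of 11 markers of oligodendrocyte precursors, Vcan fell by 0.31 on the log2 scale (-0.28, adjusted p = 0.12, without KO F1). None of 15 brainstem and midbrain, 9 deep cerebellar nuclei, 8 Golgi and unipolar brush cell, 14 forebrain and 15 proliferation markers passed in edgeR's test. At an unadjusted p under 0.05 there were 0, 1, 0, 2 and 6 of them, and DESeq2 called 1 forebrain marker lower and 1 proliferation marker higher. No gene of the marker lists was at 0 in all 8 libraries. The part of these cell types in the results above was not tested.

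**Figure D5:**
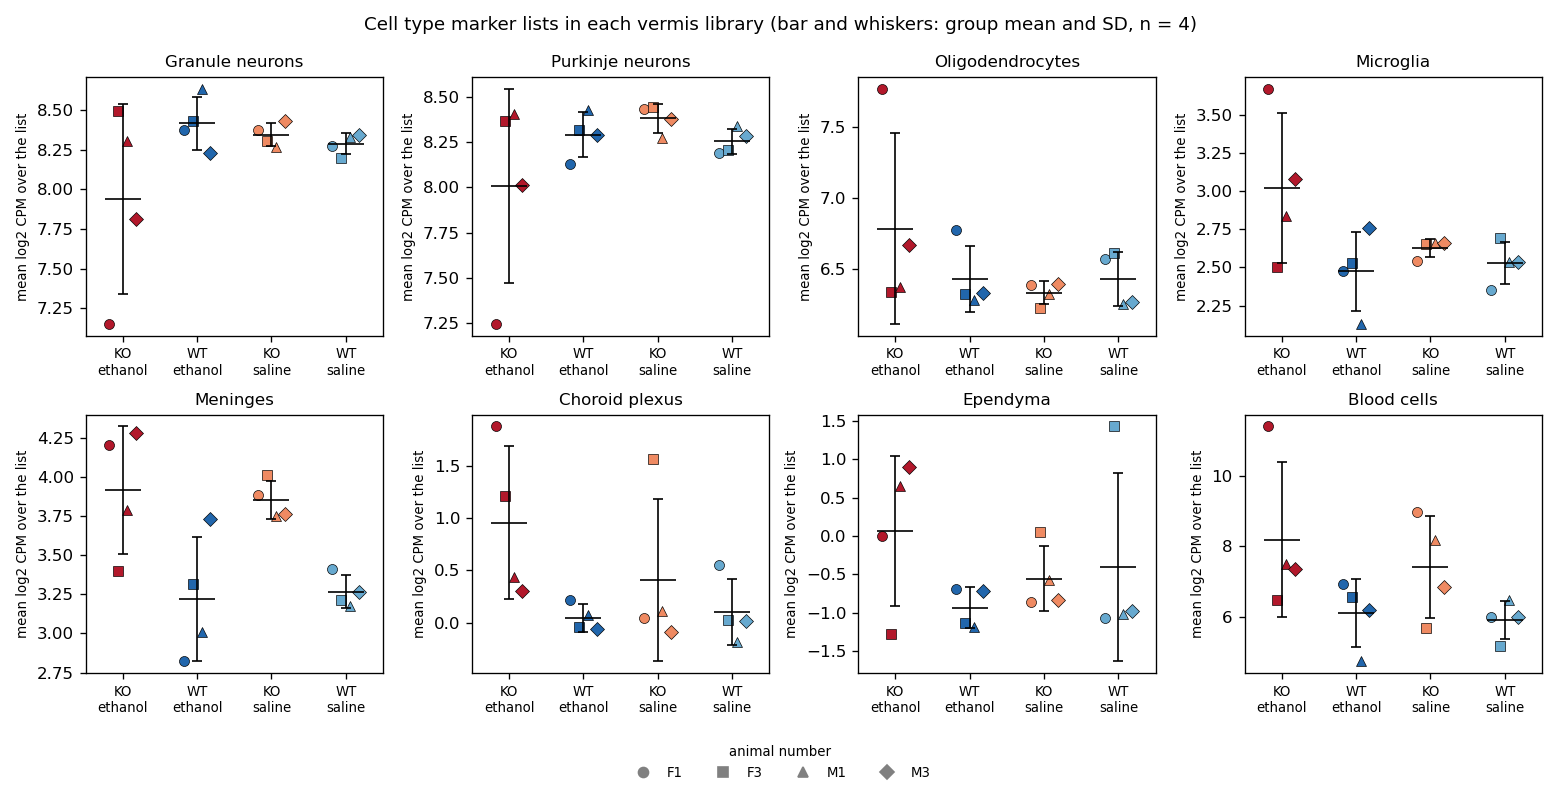
Mean log2 CPM over the genes of 8 marker lists (vertical axes) in each vermis library, by group (horizontal axes). Points are libraries, with shapes for F1, F3, M1 and M3, and the bar and whiskers are the mean and SD of 4 libraries. KO ethanol F1 is the highest library for oligodendrocyte (7.77) and blood cell genes (11.4) and the lowest for granule neuron genes (7.15).

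The same contrast was made in other mice after prenatal saline. KO saline against WT saline gave 1102 called genes (4.91%), with 716 higher (4.59%) and 58 lower (0.372%) coding genes, and 282 higher (13.7%) and 0 lower pseudogenes. Of the higher coding genes in ethanol, 549 were also higher in saline (58.0% of the ethanol and 76.7% of the saline genes), and of the higher pseudogenes 203 (78.1% and 72.0%). Of the lower coding genes, 4 were shared (1.06% and 6.90%). Ribosomal protein genes were called higher for 76 of 79 in saline (median 0.74) and oxidative phosphorylation genes for 69 of 77 (median 0.50). Neither list held a gene whose KO effect differed between exposures. The relative slope on gene length did not overlap between KO and WT in saline either. It was -0.0595 to -0.0179 in KO and 0.0213 to 0.0576 in WT libraries. No clock gene was called in saline, and 4 of the 22 glucocorticoid-responsive genes were called higher there and none lower.

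The difference of the KO effect between ethanol and saline was called for 24 genes, all of them coding (0.107% of all genes), and for 0 of 2065 pseudogenes, of which 84 had an unadjusted p under 0.05, while DESeq2 called 241 genes of all classes. Of the 24, 21 had a lower KO effect in ethanol (0.135% of coding genes) and 3 a higher one (0.0192%).

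Of the 24 genes, 19 had a negative log2 fold change in ethanol and a positive one in saline. The 24 included 8 of the 22 glucocorticoid-responsive and 3 of the 20 clock genes. Of these clock genes, Dbp and Ciart were negative in saline too (-0.21 and -0.24, not called). Mt2 averaged 82.5 ± 7.93 CPM in KO ethanol and 123.5 ± 12.2 CPM in WT ethanol vermis, and 120.6 ± 15.6 CPM in KO saline and 77.8 ± 6.91 CPM in WT saline vermis. The order of the genotypes was thus opposite in the 2 exposures, and the difference of the log2 effects was -1.22 (SE 0.12, adjusted p = 0.00068). Frmd6 averaged 23.4 ± 3.67 CPM in KO ethanol and 41.8 ± 3.35 CPM in WT ethanol, against 39.9 ± 3.89 CPM in KO saline and 27.5 ± 2.50 CPM in WT saline (difference -1.37, adjusted p = 0.0019). Dbp averaged 49.5 ± 2.50 CPM in KO ethanol, 107 ± 4.67 CPM in WT ethanol, 91.9 ± 7.32 CPM in KO saline and 106.5 ± 5.13 CPM in WT saline (difference -0.90, adjusted p = 0.00068). For Dbp, KO ethanol libraries lay apart from the other 3 groups.

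Map3k6 averaged 0.891 ± 0.0928 CPM in KO ethanol, 2.48 ± 0.285 CPM in WT ethanol, 2.25 ± 0.696 CPM in KO saline and 1.54 ± 0.107 CPM in WT saline (difference -2.0, adjusted p = 0.016). Kank1, a regulator of actin, averaged 33.2 ± 0.78 CPM in KO ethanol, 24.6 ± 0.483 CPM in WT ethanol, 24.3 ± 1.23 CPM in KO saline and 26.2 ± 1.25 CPM in WT saline (difference 0.55, adjusted p = 0.011). Mmp14, a membrane metalloprotease, and Adamts1, a secreted one, were the other genes with a higher KO effect in ethanol (0.81 and 1.01). The other genes with a lower KO effect were Sgk1, Per1, Dusp6, Klf2, Fzd4, Bdnf, Spred2, Nfkbia, Ciart, Klf15, Mxi1, Ifrd1, Tsc22d3, Rasl11a, Mt1, Gpr137c and Slc7a5. The number of genes called depended on single libraries, at 168 without KO ethanol F3 and 3 without WT saline M1.

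In the dorsal hippocampus of the same ethanol-exposed mice, 40 of 23394 genes were called between KO and WT (0.171%), 14 of them higher and 26 lower. The difference of the KO effect between vermis and hippocampus was called for 585 of 24458 genes (2.39%). It was higher in vermis for 361 coding genes (2.22%) and lower for 75 (0.462%), and higher for 121 pseudogenes (5.06%) and lower for 1 (0.0418%). It was higher for 64 of the 79 ribosomal protein genes, whose median log2 fold change in the hippocampus was -0.00015, and for 47 of the 77 oxidative phosphorylation genes (-0.03 in the hippocampus). Rps14, Rps12, Rps27, Rps23 and Rpl34 had the smallest p, with differences of 1.73, 1.49, 1.56, 1.15 and 1.44 on the log2 scale. Of the clock genes 5 and of the glucocorticoid-responsive genes 7 were called lower in the hippocampus too. Of the 378 lower coding genes in vermis, 16 were also lower in the hippocampus (4.23% of the vermis and 61.5% of the hippocampal genes): Acss2, Ciart, Dbp, Fam83d, Hif3a, Klf15, Map3k6, Nfkbia, Nr1d1, Per1, Per3, Prr5, Sgk1, Slc7a5, Tsc22d3 and Zfp276. Dbp changed by -1.11 in vermis and -1.03 in the hippocampus. Of the 946 higher coding genes, 7 were also higher in the hippocampus (0.740% and 58.3%): Calr, Ccdc190, Cldn5, Cysltr2, Gsta4, Pdia6 and Sox2. No called pseudogene was shared.

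Females and males could be compared with 2 libraries in each genotype. No gene's KO effect was called different between the sexes (0%) in edgeR's test, while 415 genes had an unadjusted p under 0.05, and DESeq2 was not run for this comparison. Per2, a period gene, had 16.7 and 11.5 CPM in KO females and 37.5 and 30.6 CPM in KO males, against 44.0 and 44.3 CPM in WT females and 45.2 and 40 CPM in WT males. The KO females were the lowest of the 8 libraries, but the difference did not pass (unadjusted p = 0.0013, adjusted p = 0.9999). The other genes with the smallest p were Creld2, Necab3, Ccnd1 and Pxmp4.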

How the data were processed

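PolyA RNA-seq of mouse vermis and dorsal hippocampus was used as the authors' deposited gene table of raw counts per gene (56415 genes: 21636 protein-coding, 13669 pseudogenes). The tools STAR 2.7.10a and featureCounts 2.0.6 and the build GRCm39 are given, per the submitters' processing notes, which also name cutadapt 5.0, bcl2fastq and DESeq2. Whether strand was used in counting is not given in the sources used here, so reads of overlapping or antisense genes cannot be told apart from a gene's own. Of low counts, 86.3 to 88.9% were even in the 8 libraries, so both mates of a pair were counted. The unannotated and transcript tables were not used here. The labels give 1 sequencing batch for all libraries.

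The 16 vermis libraries were fitted together in R 4.3.3 with edgeR 4.0.16 (limma 3.58.1): filterByExpr, TMM factors, robust quasi-likelihood with sex as a term, and Benjamini-Hochberg adjustment at 0.05 over 22441 genes. The difference between tissues was fitted over 24458 genes. Libraries were compared for copies, and the lowest chi-square per degree of freedom within a group was 10.9. The fit was run on simulated counts with the same dispersion for every gene and no library apart from its group. That run does not test the fit for libraries such as KO F1. Log2 CPM used a prior count of 2. Pseudogenes were matched with blastn 2.17.0 (word size 16) to GENCODE transcripts of GRCm38, and promoters came from RefSeq, GRCm38.p6.

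Named genes were Acss2, up to 15 higher and 15 lower coding genes and 5 pseudogenes per direction with the smallest p at a mean of at least 1 CPM, up to 4 members of each list and up to 5 genes of each difference. The comparison and the 40 lists were chosen with earlier results of these data known, and no list was given a test of its own. Alternatives were DESeq2 1.42.0, RLE scaling, no filter, no sex term, a replicate block, coding genes alone, a gene length offset (lowess span 0.3), the compared groups alone and each library left out.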

Additional observations from a re-analysis of the deposited data

Results flagged for a closer look

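The KO effect in vermis differed between ethanol and saline for 24 genes by the test of the difference itself. On the log2 scale, ethanol minus saline, it was -2.0 for Map3k6, -1.40 for Per1, -1.37 for Frmd6, -1.25 for Rasl11a, -1.22 for Mt2, -1.22 for Sgk1, -1.18 for Klf2, -1.18 for Spred2 and -1.0 for Dusp6. It was -0.90 for Dbp, -0.87 for Fzd4, -0.87 for Bdnf, -0.86 for Mxi1, -0.83 for Ciart, -0.73 for Klf15, -0.70 for Nfkbia, -0.68 for Tsc22d3, -0.64 for Ifrd1, -0.61 for Mt1, -0.57 for Slc7a5 and -0.49 for Gpr137c. It was above 0 for Kank1 (0.55), Mmp14 (0.81) and Adamts1 (1.01).

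The KO effect after ethanol differed between vermis and hippocampus for many of the named genes, given here as vermis minus hippocampus on the log2 scale. Among ribosomal protein genes it was 1.73 for Rps14, 1.56 for Rpl39, 1.56 for Rps27, 1.49 for Rps12, 1.46 for Rpl35a, 1.44 for Rpl34, 1.16 for Rps3, 1.15 for Rps23, 1.13 for Rpl26, 1.08 for Fau, 1.00 for Rps25 and 0.81 for Rpl10a. Among pseudogenes it was 1.57 for Gm10736, 1.23 for Rps16-ps2, 1.00 for Gm10123, 0.86 for Gm4294 and 0.82 for Rpl15-ps3. Among mitochondrial genes it was 1.27 for Uqcc2, 1.25 for Cox7a2, 1.03 for Atp5f1e, 1.03 for Chchd2, 0.97 for Mrpl20, 0.84 for Ndufa12 and 0.65 for mt-Co3. Among genes of translation, folding, breakdown, redox control and splicing it was 1.10 for Pfdn5, 0.64 for Tpt1, 0.56 for Eif3i, 0.63 for Psma2, 0.75 for Psmb4, 0.59 for Hspe1, 0.83 for Gpx4, 0.65 for Prdx1 and 0.73 for Snrpd2. It was 0.92 for Hint1, 0.38 for Pmvk, 1.63 for Tyrobp and 0.86 for Itm2a. It was below 0 for Frmd6 (-0.79) and Tef (-0.45).

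Single libraries stood far from the other 3 of their group by Dixon's criterion in 11 of 260 groups of values, and chance alone gives about 1 in 20 such groups. In log2 CPM, KO F1 was lowest for Gm6483 (3.10) and highest for Prdx1 (6.58), Gjb1 (5.26) and the mean of the sterol synthesis list (5.36). WT F1 was highest for Rps3 (6.42), Cox7a2 (5.59) and the mean of the oligodendrocyte list (6.77). WT M3 was highest for Slc7a5 (6.88) and the mean of the pericyte list (3.51), and lowest for Kank1 (4.58). WT M1 was lowest for the mean of the list of heat shock and unfolded protein genes (6.24).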

How the results depend on the processing

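In ethanol vermis 1690 genes were called. DESeq2 called 3013 (1758 higher, 1255 lower, 98.2% of the 1690 among them), and a fit of the 8 libraries alone called 693 (645 higher, 48 lower). For coding genes the same settings gave 2446 and 500, against 1324, and for pseudogenes the 8 libraries alone gave 148, against 265. The share of higher calls was 76.2% in edgeR and 58.3% in DESeq2. RLE scaling, no filter, no sex term, the replicate block and the length offset gave 1790, 1448, 1794, 1572 and 1431. Leaving out 1 library gave 973 to 5092 genes of all classes, 733 to 4267 coding genes and 186 to 419 pseudogenes, the highest counts without KO F3, the shallowest library. In saline vermis it gave 760 to 1111, against 1102.

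The difference between exposures called 24 genes, and 241 in DESeq2, 53 without a filter, 41 without the sex term, 37 with the length offset, 6 with the replicate block and 3 to 168 without 1 library. That between tissues called 585, and 358 to 822 without 1 library. That between sexes called 0 throughout. The Acss2 log2 difference was -2.18 to -1.90 without 1 library. Same-numbered KO and WT libraries correlated at 0.185, -0.115, 0.255 and 0.222 in their deviations from the group means. Pairs with different numbers ran from -0.543 (KO F1 with WT M1) to 0.484 (KO F3 with WT M1). These values do not show whether the replicate numbers pair the samples. For single named genes, no direction reversed. Their calls were lost in 15 cases with the length offset, 14 with the replicate block, 39 with the compared groups alone, and 162 with 1 library left out. There 854 cases were unchanged, and these include the genes of the sex difference, which were called in no setting. The causes were not tested. A gene at 1 CPM held 22.9 counts in KO F3, and the part of depth in the calls was not tested.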
